A study of Mus musculus with 12 samples.

Results

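The response to lipopolysaccharide (LPS) of monocytes that had been with platelets was described from 6 of 12 RNA sequencing libraries. In 3 of them, wild-type monocytes from the bone marrow of C57Bl6J mice spent a night with platelets, were washed and then received LPS. In the other 3 the monocytes spent a night with platelets and received no LPS. The libraries were chosen by their titles and treatment labels, so no measured value entered the choice, and all genes in the files were considered. The remaining 6 libraries, 3 of monocytes given LPS without platelets and 3 of untreated monocytes, shared the model fit and enter only where the LPS response is set beside that of cells not kept with platelets. All 4 groups have the same strain, genotype, tissue and cell type labels. No source used here gives the platelet donors, the doses, the time with LPS, or the age and sex of the mice. Whether replicates are separate mice or cultures is not stated either, and p-values therefore rest on a spread between libraries that may be technical.

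LPS is a lipid of the outer membrane of Gram-negative bacteria. The surface protein CD14 hands it to the receptor TLR4 with its partner MD-2, and from there the adaptor MyD88 leads to NF-kB and to inflammatory cytokines, while the adaptor TRIF leads to the factor IRF3 and to interferon beta. Interferon beta acts back on the cells through STAT proteins and IRF9, which switch on antiviral genes at DNA elements called ISREs. Platelets are cell fragments without a nucleus that bind monocytes during clotting and infection, carry RNA of their own and release chemokines and growth factors.

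The 6 libraries held 26275605 to 31119054 counts, so that 3 counts corresponded to 0.0853 to 0.128 CPM. Levels are given in CPM, which are counts per 1000000 counts of a library after scaling by TMM, the trimmed mean of M-values. Values of a group are given for replicates 1, 2 and 3 in that order, and levels with and without LPS are those of platelet-exposed cells unless another group is named. Platelet replicate 1 stood apart: chi-square divided by its degrees of freedom was 76.2 and 83.5 between it and its replicates and 6.75 to 21.6 between other replicates, and it held 0.886% mitochondrial counts where the other 11 libraries held 0.431 to 0.600%. Its description field says control, while its title and treatment label say platelets, and it was kept as a platelet library. Counts of genes or list members that move by more than 1.5 times without it are given beside the results. Of 14 monocyte markers all were tested, and their summed level was 42260 to 45260 CPM with LPS and 43160 to 46320 CPM without. Ly6c2, the classical monocyte surface antigen, had 119, 125 and 118 CPM with LPS and 40.6, 38.1 and 35.2 CPM without, and Csf1r, the receptor for the monocyte growth factor CSF1, had 1540, 1426 and 1496 CPM with LPS and 745, 1156 and 1223 CPM without, so the label of monocytes had its defining transcripts in all 6 libraries. In bulk samples, fewer cells of a type and less RNA per cell cannot be told apart.

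LPS changed close to as many genes as it left below the threshold. Of 13151 genes tested with edgeR's quasi-likelihood model, 6498 (49.4%) passed a Benjamini-Hochberg adjusted p of 0.05: 3627 (27.6%) were higher with LPS and 2871 (21.8%) were lower. Large rises outnumbered large falls. By fitted fold, which for genes with no count before LPS depends on the prior count, rises of at least 2-fold numbered 1793 (13.6%) and falls 1191 (9.06%). Rises of at least 4-fold numbered 1070 (8.14%) and falls 401 (3.05%), at least 16-fold 456 (3.47%) and 44 (0.335%), and at least 100-fold 185 (1.41%) and 6 (0.0456%). The 3 libraries with LPS did not overlap the 3 without in 7204 genes (54.8%), with LPS above in 3969 (30.2%) and below in 3235 (24.6%). The median log2 fold change over all genes tested was 0.02, with quartiles of −0.42 and 0.48. The split into higher and lower depended on the scaling, since the libraries with LPS had TMM factors of 0.870 to 0.884 and those without had 1.08 to 1.15. Of the genes called, 55.8% were higher with TMM, 50.9% with DESeq2 size factors, 35.4% with upper-quartile factors and 27.6% with library size alone. Upper-quartile factors moved the median of all genes to −0.22 and library size alone moved it to −0.34, so small changes below are best read against the median of all genes. Without platelet replicate 1 there were 6754 calls, 3470 higher and 3284 lower.

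**Figure D1:**
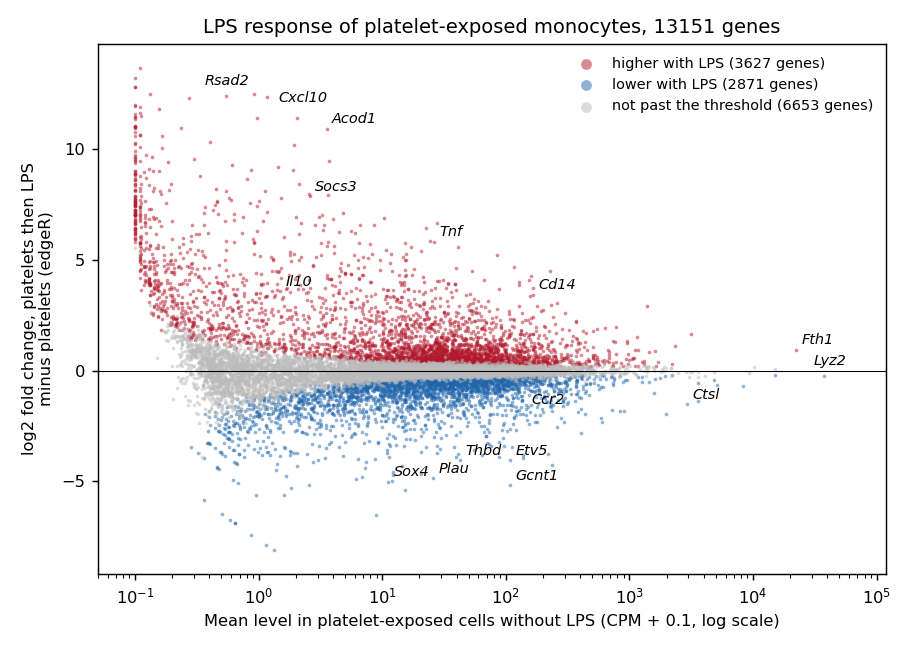
Each point is 1 of 13151 genes, with its mean level in platelet-exposed monocytes without LPS on a log axis (CPM plus 0.1) and its log2 fold change with LPS on the vertical axis. Red genes were higher with LPS (3627), blue genes lower (2871) and grey genes did not pass the threshold (6653). The column of red points at the left edge holds genes with few or no counts before LPS, and the largest fold changes lie at low starting levels.

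The receptors and adaptors through which cells sense LPS changed in both directions. Tlr4, the LPS receptor itself, was at 15.96, 12.8 and 14.5 CPM with LPS and 34.3, 57.5 and 55.8 CPM without. All 3 libraries with LPS lay below all 3 without, and the gene was 3.41-fold lower (log2 −1.77, SE 0.19, edgeR adjusted p = 7.89e-07). Cd14, which hands LPS to the receptor, was at 1842, 1916 and 1633 CPM with LPS and 164, 162 and 174 CPM without, 10.8-fold higher (log2 3.43, SE 0.10, edgeR adjusted p = 1.13e-13). Tlr2, the receptor for bacterial lipoproteins, was at 2037, 2018 and 2070 CPM with LPS and 111, 131 and 142 CPM without, 15.9-fold higher (edgeR adjusted p = 2.71e-14). Peli1, a ubiquitin ligase of Toll-like receptor signalling, was 14.8-fold higher (log2 3.89, SE 0.12, edgeR adjusted p = 1.65e-13). For these 3 rises no library with LPS came near the range of those without. Of 30 genes of LPS sensing and Toll-like receptor signalling, 23 were higher and 2 lower, with a median log2 fold change of 1.11 and a range of −1.77 for Tlr4 to 4.43 for Tlr3, the receptor for double-stranded RNA. The other lower member was Irak4, a kinase that joins MyD88, at log2 −0.29 (edgeR adjusted p = 0.0249), a call lost without any 1 of platelets-then-LPS replicates 1 and 3 and platelet replicates 2 and 3. Without platelet replicate 1 the list had 21 higher and 4 lower.

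Most genes of a list of NF-kB subunits and feedback inhibitors rose. Socs3, a brake on cytokine receptor signalling, was at 588, 606 and 561 CPM with LPS and 2.74, 2.28 and 2.48 CPM without, 234-fold higher (log2 7.87, SE 0.12, edgeR adjusted p = 1.06e-16). Gpr84, a receptor for medium-chain fatty acids, was at 571, 612 and 608 CPM with LPS and 13.3, 15.8 and 17.5 CPM without, 38.4-fold higher (log2 5.26, SE 0.11, edgeR adjusted p = 4.53e-15). Tnip1, which restrains NF-kB together with the enzyme A20, was 15.6-fold higher (log2 3.97, SE 0.09, edgeR adjusted p = 1.13e-14). In each case the lowest library with LPS exceeded the highest without it by more than 10 times. Of the 32 genes of this list, which is broader than its name and also holds Gpr84, 25 were higher and 4 lower (median 2.61). Socs3 had the largest rise and Zfp36l1, which promotes mRNA decay, the largest fall at log2 −3.76.

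Cytokine transcripts were among those with the largest changes. Tnf, which encodes tumour necrosis factor, was at 1411, 1475 and 1554 CPM with LPS and 22.6, 28.2 and 28.3 CPM without, 56.1-fold higher (log2 5.81, SE 0.11, edgeR adjusted p = 1.05e-15). Il1b, the precursor of interleukin-1 beta, was at 786, 715 and 666 CPM with LPS and 0.844, 1.94 and 3.33 CPM without. The libraries without LPS spread 4-fold among themselves in Il1b, platelet replicate 1 lowest, and the rise was 345-fold (log2 8.43, SE 0.29, edgeR adjusted p = 9.04e-13). Il6, an inducer of fever and the acute phase, averaged 104.6 ± 14.9 CPM (SD, n = 3) with LPS against 0.105, 0.0312 and 0.0569 CPM without, where no library had more than 3 counts, and was 1553-fold higher in the fit (log2 10.60, SE 0.24, edgeR adjusted p = 7.2e-15). Il12b, the shared chain of interleukins 12 and 23, was at 166, 129.8 and 133 CPM with LPS and 0.281, 0.312 and 0 CPM without. Il27, which acts on T cells, was 446-fold higher (log2 8.80, SE 0.19, edgeR adjusted p = 5.82e-15), and Il1a, the membrane-bound sister of interleukin-1 beta, 296-fold higher (log2 8.21, SE 0.18, edgeR adjusted p = 6.37e-15). Ifnb1, interferon beta, was at 2.98, 5.52 and 4.58 CPM with LPS and had no count in any platelet library, so it was at least 45.95-fold higher, counting 3 counts in each library without LPS. Il10, the inhibitory cytokine, was at 17.3, 15.5 and 16.6 CPM with LPS and 1.58, 1.25 and 1.31 CPM without, 11.96-fold higher (log2 3.58, SE 0.15, edgeR adjusted p = 1.19e-11). Of 28 tested cytokines 25 were higher and 1 lower. The median was 5.69, or 5.55 with genes absent before LPS at their lower bounds. The lower member was Il16, a chemoattractant for CD4+ cells, at 1.24, 1.97 and 0.821 CPM with LPS and 7.77, 6.53 and 8.08 CPM without (log2 −2.48, SE 0.26, edgeR adjusted p = 8e-07). Il23a and Il33 did not pass the filter on low counts.

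Chemokines for T cells, neutrophils and monocytes did not all behave alike. Cxcl10, a T cell attractant induced by interferons, was at 5188, 5380 and 6143 CPM with LPS and 1.37, 0.906 and 0.939 CPM without, 5229-fold higher (log2 12.35, SE 0.17, edgeR adjusted p = 7.41e-17). Ccl5, another T cell attractant, was at 4845, 5373 and 5345 CPM with LPS and 2.57, 1.31 and 1.96 CPM without (log2 11.39, SE 0.25, edgeR adjusted p = 5.04e-15). Ccl3, which draws phagocytes, was 87.5-fold higher (log2 6.45, SE 0.14, edgeR adjusted p = 4.4e-15), and Ccl22, which draws regulatory T cells, 223-fold higher (log2 7.80, SE 0.14, edgeR adjusted p = 1.02e-15). Ccl2, the main ligand of the monocyte receptor CCR2, was already abundant without LPS and did not pass the threshold, at 1491, 1642 and 1748 CPM with LPS and 1635, 1344 and 1279 CPM without (log2 0.20, SE 0.10, edgeR adjusted p = 0.125). The groups overlapped in Ccl2 through platelet replicate 1, without which the gene was called higher at log2 0.25 (edgeR adjusted p = 0.0151). Ccl6, a constitutive myeloid chemokine, was at 849, 883 and 898 CPM with LPS and 1397, 1222 and 1184 CPM without (log2 −0.53, SE 0.09, edgeR adjusted p = 0.000108). Ppbp, a chemokine that platelets store, was the other lower member, at 152, 133 and 133 CPM with LPS and 191, 176 and 155 CPM without (log2 −0.32, SE 0.09, edgeR adjusted p = 0.00969). The chemokine list, 24 genes tested, had 19 higher and 2 lower, and its median was 6.01, or 5.46 at the lower bounds.

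Every tested member of the list of interferon-stimulated antiviral genes rose, and Trex1, with no count in these libraries, was not tested. All 47 were called higher by edgeR, and by DESeq2 and limma-voom as well, with a median log2 fold change of 5.73 and a range of 1.13 for Ifi27l2a to 12.49 for Ifit3b. Their summed level was 26580 to 29940 CPM with LPS and 874 to 946 CPM without. Rsad2, an enzyme that makes a chain-ending nucleotide against viral replication, was at 4442, 4463 and 5408 CPM with LPS and 0.739, 0.906 and 0.825 CPM without, the largest rise among genes with more than 3 counts without LPS, 5745-fold (log2 12.49, SE 0.14, edgeR adjusted p = 6.38e-18). Oasl1, a relative of the oligoadenylate synthetases, was at 2339, 2423 and 2478 CPM with LPS and 0.457, 0.469 and 0.398 CPM without (log2 12.41, SE 0.25, edgeR adjusted p = 2.86e-15). Ifit1 and Ifit3, which bind foreign RNA or its partners, were 2732-fold higher (log2 11.42, SE 0.14, edgeR adjusted p = 1.85e-17) and 5090-fold higher (log2 12.31, SE 0.29, edgeR adjusted p = 1.08e-14). Cmpk2, a mitochondrial nucleotide kinase next to Rsad2 in the genome, was at 2054, 2074 and 2344 CPM with LPS and 2.08, 1.88 and 1.56 CPM without (log2 10.20, SE 0.18, edgeR adjusted p = 9.22e-16). In each of these genes every library with LPS lay far above every library without it. Ifit3 and Ifit3b are near-identical, and how reads were split between them is not known.

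Guanylate-binding proteins and immunity-related GTPases, which attack the membranes of vacuoles that hold microbes, rose as a group. All 14 tested members were higher by edgeR, DESeq2 and limma-voom, with a median of 7.42, or 7.20 at the lower bounds. Their summed level was 2210 to 2528 CPM with LPS and 25.9 to 36.0 CPM without. Gbp5 was at 261, 256 and 327 CPM with LPS and 0.0703, 0.281 and 0.0569 CPM without (log2 10.97, SE 0.29, edgeR adjusted p = 6.58e-13). Gbp3 was 624-fold higher (log2 9.28, SE 0.20, edgeR adjusted p = 5.82e-15), Igtp 38.3-fold higher (log2 5.26, SE 0.10, edgeR adjusted p = 1.05e-15) and Irgm1 34.8-fold higher (log2 5.12, SE 0.10, edgeR adjusted p = 3.33e-15). The Gbp genes resemble each other in sequence, so single members are less certain than their sum, and Gbp8, Gbp10 and Gbp11 did not pass the filter.

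The promoters of 3 of the genes with the largest rises are shown because they hold the letters of an ISRE, through which interferon signalling is known to act, or of an NF-kB site. The windows run from 250 bases before to 50 after the annotated gene start in RefSeq on GRCm38.p6, and are written 5′ to 3′ in the direction of transcription. Capitals mark matches to the ISRE motif GAAA NN GAAA or the NF-kB motif GGGA NN TTCC on either strand, where N is any base and the spaces are only for reading.
Rsad2, chr12:26456403-26456702, minus strand: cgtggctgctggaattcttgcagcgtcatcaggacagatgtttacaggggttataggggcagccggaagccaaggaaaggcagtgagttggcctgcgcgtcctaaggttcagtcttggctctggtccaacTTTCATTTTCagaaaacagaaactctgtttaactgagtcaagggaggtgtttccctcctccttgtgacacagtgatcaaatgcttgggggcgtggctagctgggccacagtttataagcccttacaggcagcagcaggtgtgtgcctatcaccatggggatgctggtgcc
Cxcl10, chr5:92348840-92349139, minus strand: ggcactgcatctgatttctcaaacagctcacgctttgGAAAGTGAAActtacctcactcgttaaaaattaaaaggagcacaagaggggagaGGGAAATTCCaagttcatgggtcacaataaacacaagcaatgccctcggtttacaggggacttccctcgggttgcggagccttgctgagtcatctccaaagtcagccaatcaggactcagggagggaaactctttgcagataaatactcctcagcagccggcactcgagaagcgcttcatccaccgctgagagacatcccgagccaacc
Gbp5, chr3:142496684-142496983, plus strand: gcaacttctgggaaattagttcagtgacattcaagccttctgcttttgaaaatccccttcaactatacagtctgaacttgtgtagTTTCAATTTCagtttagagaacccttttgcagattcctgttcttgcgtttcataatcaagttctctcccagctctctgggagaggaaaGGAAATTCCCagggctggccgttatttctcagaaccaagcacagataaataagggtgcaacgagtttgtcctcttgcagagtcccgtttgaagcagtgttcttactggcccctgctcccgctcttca
The capitals in Rsad2 are an ISRE match on the opposite strand, starting 120 bases before the gene start. In Cxcl10 the first capitals are an ISRE match at −213 and the second an NF-kB match at −159. In Gbp5 they are an ISRE match at −165 and an NF-kB match at −77. No source used here gives the build of the deposited counts, so genes and promoters were joined by symbol only. A match is a description of letters and not a measured binding site.

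**Figure D2:**
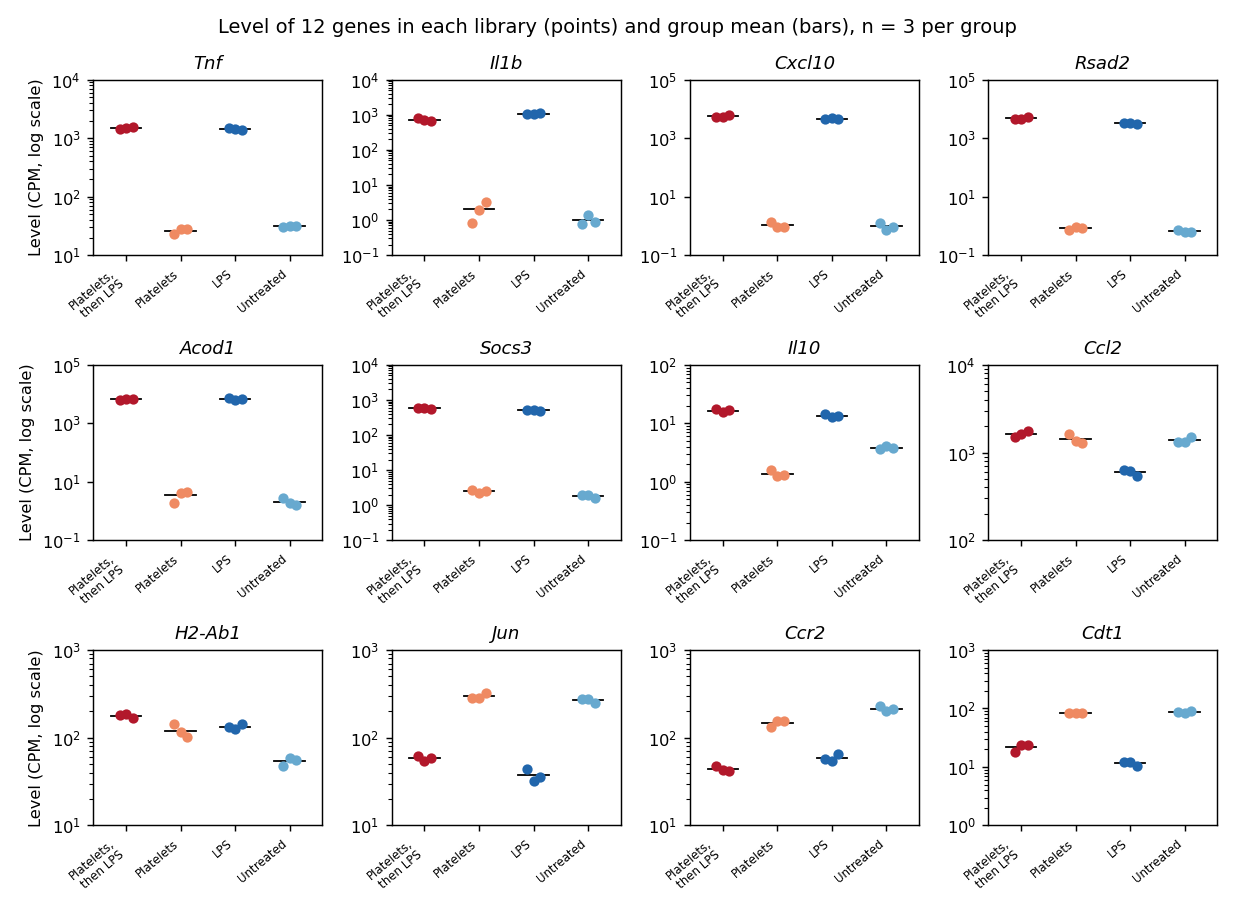
The level of 12 genes in CPM on a log axis, with a point for each library and a bar for the mean of 3 libraries, for platelets then LPS, platelets alone, LPS alone and untreated cells. Tnf, Il1b, Cxcl10, Rsad2, Acod1, Socs3 and Il10 are separated without overlap by LPS after platelets, Jun, Ccr2 and Cdt1 are lower with it, and in Ccl2 the libraries with and without LPS after platelets overlap.

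Across all promoter windows the ISRE share followed the size of the rise. Of 12454 windows of genes tested, 3.32% held the ISRE motif, against 3.44% of all 32851 windows in the RefSeq table. The share was 21.2% of the 151 windows of genes called at least 100-fold higher, 15.1% at least 16-fold, 10.7% at least 4-fold and 5.11% of all windows of genes called higher. It was 2.59% of windows of genes not called and 2.59% of those called lower. The NF-kB motif, present in 1.53% of windows of genes tested and 1.47% of all windows, had shares of 8.61% at least 100-fold, 4.52% at least 16-fold and 2.09% among all genes called higher, and 1.06% among genes called lower. In the interferon-stimulated list 19 of 41 windows (46.3%) held an ISRE match, and in the list of guanylate-binding proteins and immunity-related GTPases 9 of 10 (90%). In the chemokine list 4 of 16 windows (25%) held an NF-kB match and in the cytokine list 4 of 26 (15.4%). The E2F motif TTT NN CGC, known from promoters of DNA replication genes and present in 5.17% of all windows, was in 8.26% of windows of genes tested and in 14 of 32 (43.8%) of the DNA replication and G1/S list. Its share was 3.31% among genes at least 100-fold higher, 9.20% among all genes called lower, 5.99% among those at least 4-fold lower and 8.78% among genes not called. These shares are descriptions, and a window without a match shows only that these letters are absent from it. All motifs were searched on both strands, and matches to different motifs may share bases.

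**Figure D3:**
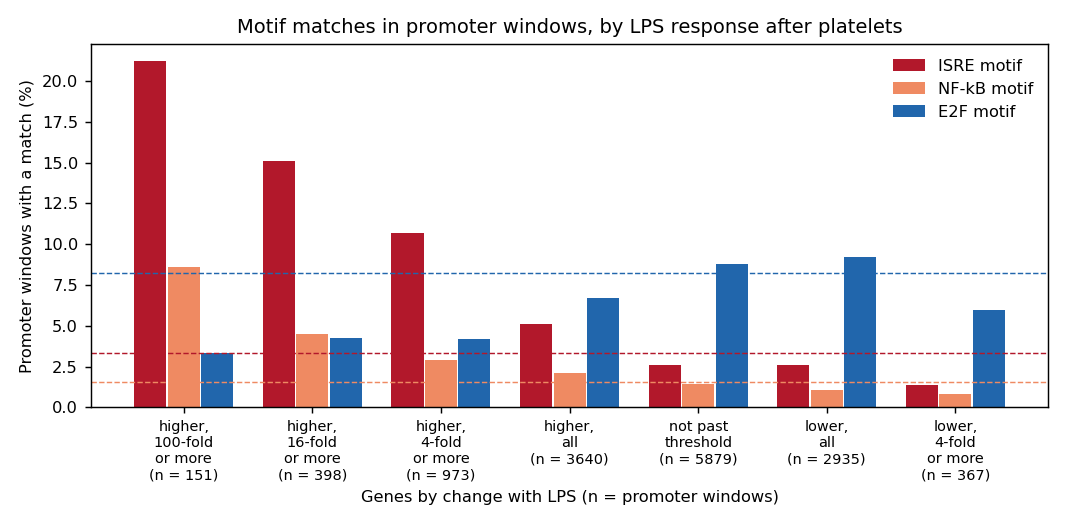
The share of RefSeq promoter windows (percent, from 0) with a match to each of 3 motifs, for genes grouped by their change with LPS after platelets, with the number of windows under each group. Dashed lines give the share over windows of all genes tested. The ISRE bars fall in steps from 21.2% for genes at least 100-fold higher to 1.36% for genes at least 4-fold lower.

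Transcription factors that relay interferon signals rose, while some lineage factors of the same family fell. Irf7, the amplifier of interferon production, was at 788, 796 and 857 CPM with LPS and 7.21, 10.7 and 7.79 CPM without, 94.96-fold higher (log2 6.57, SE 0.16, edgeR adjusted p = 1.56e-14). Irf1, an activator of interferon-responsive genes, was at 192, 205 and 216 CPM with LPS and 12.6, 15.9 and 13.3 CPM without, 14.6-fold higher (log2 3.87, SE 0.10, edgeR adjusted p = 4.22e-14). Both were separated by more than 10-fold between the groups. Of 26 interferon regulatory factors, STATs and JAKs, 18 were higher and 5 lower (median 0.84). Without platelet replicate 3 the lower members numbered 3. Irf8, which drives monocyte development, was one of the lower, at 185, 192 and 180.0 CPM with LPS and 341, 324 and 328 CPM without (log2 −0.83, SE 0.09, edgeR adjusted p = 1.01e-06).

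Enzymes and secreted effectors of activated macrophages included some of the largest rises. Nos2, which makes nitric oxide, was at 227, 215 and 274 CPM with LPS, while among the libraries without LPS platelet replicates 1 and 2 had no count and replicate 3 had 0.171 CPM (log2 11.79, SE 0.35, edgeR adjusted p = 2.65e-12). Acod1, which makes itaconate from a citric acid cycle intermediate, was at 6514, 6692 and 6900 CPM with LPS and 1.86, 4.09 and 4.38 CPM without, 1919-fold higher (log2 10.91, SE 0.26, edgeR adjusted p = 1.44e-14). Ptgs2, the inducible cyclooxygenase, was at 120.2, 89.7 and 119.7 CPM with LPS and 0.105, 0.219 and 1.17 CPM without (log2 7.69, SE 0.41, edgeR adjusted p = 2.07e-10). Ptges, the next enzyme towards prostaglandin E2, was 252-fold higher (log2 7.98, SE 0.14, edgeR adjusted p = 9.22e-16), Clec4e, a receptor for mycobacterial glycolipid, 36.97-fold higher (log2 5.21, SE 0.10, edgeR adjusted p = 1.75e-15), and Saa3, an acute phase protein, 713-fold higher (log2 9.48, SE 0.16, edgeR adjusted p = 5.26e-16). The list of such enzymes and effectors had 34 of 40 higher and 3 lower (median 4.21). Plau, the urokinase plasminogen activator, was at 0.945, 0.685 and 1.02 CPM with LPS and 28.8, 24.5 and 24.1 CPM without, 28.9-fold lower (log2 −4.85, SE 0.17, edgeR adjusted p = 1.09e-12). Arg1, which competes with Nos2 for arginine, was at 142, 156 and 114 CPM with LPS and 244, 179.9 and 190.0 CPM without (log2 −0.58, SE 0.14, edgeR adjusted p = 0.00249), and Mmp8, a collagenase, had log2 −0.47 (edgeR adjusted p = 0.00131).

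Sensors and caspases of the inflammasome rose, while its adaptor fell. Casp4, which senses LPS in the cytosol and is also known in mouse as caspase-11, was 35.2-fold higher (log2 5.14, SE 0.13, edgeR adjusted p = 1.71e-14). Nlrp3, a sensor of cell damage, was at 171, 171 and 190.0 CPM with LPS and 15.7, 13.2 and 15.6 CPM without (log2 3.58, SE 0.10, edgeR adjusted p = 6.53e-14), and Mefv, which encodes pyrin, was 6.21-fold higher (log2 2.64, SE 0.10, edgeR adjusted p = 3.29e-12). Pycard, the adaptor ASC, was at 65.5, 69.2 and 61.5 CPM with LPS and 131, 94.9 and 88.8 CPM without (log2 −0.68, SE 0.12, edgeR adjusted p = 0.000258). Of 18 inflammasome and pyroptosis genes 14 were higher and only Pycard was lower (median 1.06), while 2 were lower without platelets-then-LPS replicate 1.

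Most class I antigen presentation genes rose, and class II genes were called in both directions. Tap1, which pumps peptides to MHC class I, was at 459.9, 465 and 489 CPM with LPS and 27.5, 31.4 and 27.97 CPM without, 16.3-fold higher (log2 4.03, SE 0.09, edgeR adjusted p = 5.82e-15). The nonclassical class I genes H2-T22 and H2-T24 were 10.1-fold higher (log2 3.34, SE 0.09, edgeR adjusted p = 3.38e-14) and 35.02-fold higher (log2 5.13, SE 0.15, edgeR adjusted p = 1.34e-13). The class I list had 20 of 23 genes higher and 0 lower by edgeR, DESeq2 and limma-voom, and 21 and 0 where p was under 0.05 before adjustment (median 2.12), and 21 and 1 without platelet replicate 1. In the MHC class II list 9 of 17 were higher and 6 lower, and its median of 0.35 turned to −0.01 with library size alone, where 3 were higher and 8 lower. With upper-quartile factors 6 were higher and 7 lower. H2-Ab1, a chain of the class II molecule, was at 182, 188 and 167 CPM with LPS and 143, 117 and 102 CPM without (log2 0.57, SE 0.12, edgeR adjusted p = 0.000744), a call lost with library size alone. Marchf1, a ubiquitin ligase that removes class II from the surface, was 4.997-fold higher (log2 2.32, SE 0.15, edgeR adjusted p = 2.02e-09), while H2-DMa, which loads class II with peptide, had log2 −0.83 (edgeR adjusted p = 6.92e-05) and Lgmn, a protease of the class II pathway, log2 −0.53 (edgeR adjusted p = 5.4e-05).

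Surface ligands for T cells mostly rose. Cd40, a receptor through which helper T cells stimulate myeloid cells, was at 1387, 1388 and 1452 CPM with LPS and 28.2, 25.1 and 19.7 CPM without, 57.9-fold higher (log2 5.86, SE 0.12, edgeR adjusted p = 3.74e-15). Cd69, an activation antigen, was at 172, 170.4 and 212 CPM with LPS and 0.774, 1.38 and 0.569 CPM without (log2 7.67, SE 0.20, edgeR adjusted p = 3.88e-14), and Slamf7 was 8.32-fold higher (log2 3.06, SE 0.10, edgeR adjusted p = 2.22e-13). Vsir, the inhibitory ligand VISTA, was at 45.02, 48.97 and 46.9 CPM with LPS and 191, 199.7 and 180.2 CPM without (log2 −2.02, SE 0.09, edgeR adjusted p = 1.95e-11). Havcr2, the inhibitory receptor TIM-3, was 4.95-fold lower (log2 −2.31, SE 0.20, edgeR adjusted p = 7.29e-08), and Cd200r1, an inhibitory receptor of myeloid cells, had log2 −0.56 (edgeR adjusted p = 0.000539). Of 21 costimulatory and coinhibitory genes, 16 were higher and 3 lower (median 2.32), the lower members being these inhibitory genes.

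**Figure D4:**
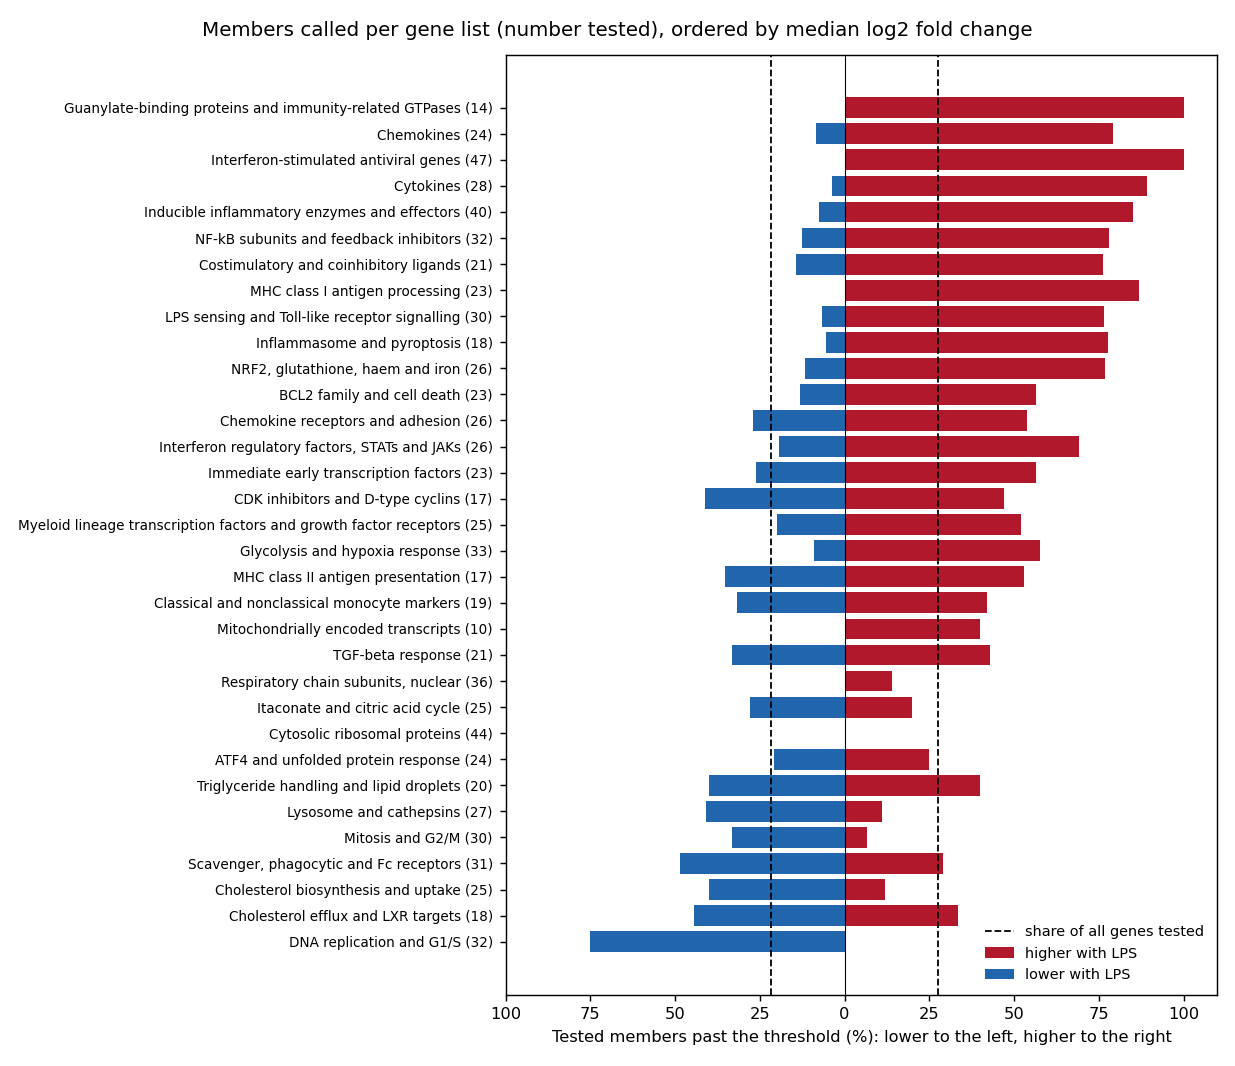
Bars give the percent of tested members of 33 gene lists called higher with LPS (right, red) or lower (left, blue), with the number tested in brackets and lists ordered by their median log2 fold change under TMM scaling. Dashed lines mark the shares over all genes tested, 27.6% higher and 21.8% lower. Interferon-stimulated genes and guanylate-binding proteins reach 100% higher, and DNA replication and G1/S genes reach 75% lower.

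Among the largest falls were receptors, growth-linked factors and glycosylation enzymes. Gcnt1, which builds branched O-glycans, was at 1.89, 2.44 and 4.62 CPM with LPS and 78.5, 114 and 132 CPM without, 36.2-fold lower (log2 −5.18, SE 0.28, edgeR adjusted p = 2.65e-10). Sox4, a transcription factor of progenitors, was at 0.364, 0.171 and 0.469 CPM with LPS and 12.5, 11.1 and 9.67 CPM without (log2 −5.01, SE 0.37, edgeR adjusted p = 1.06e-08). Cnr2, the cannabinoid receptor of leukocytes, was at 0.4000, 0 and 0.704 CPM with LPS and 8.302, 13.8 and 13.9 CPM without (log2 −4.98, SE 0.52, edgeR adjusted p = 7.42e-07). C5ar2, a receptor for the complement fragment C5a, was 26.2-fold lower (log2 −4.71, SE 0.30, edgeR adjusted p = 1.56e-09), and Thbd, thrombomodulin, which turns thrombin into an anticoagulant, 16.4-fold lower (log2 −4.04, SE 0.15, edgeR adjusted p = 1.83e-12). Etv5, an ETS factor, was at 5.67, 7.41 and 6.61 CPM with LPS and 84.6, 116 and 126 CPM without (log2 −4.05, SE 0.15, edgeR adjusted p = 2.69e-12). Eps8, an actin regulator, Rab3il1, an exchange factor for Rab proteins, and St6gal1, a sialyltransferase, were 25.2-fold lower, 19.4-fold lower and 19.6-fold lower, at edgeR adjusted p = 6.12e-10, 5.51e-14 and 1.29e-07. In all of these genes the highest library with LPS lay below the lowest without it. Eps8 and Thbd were not searched for motifs, and among the other falls named here Rab3il1 had an E2F match, in 1 of its 5 promoter windows.

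Immediate early factors were called in both directions. Atf3, a stress factor that restrains inflammatory genes, was 4.93-fold higher (log2 2.30, SE 0.08, edgeR adjusted p = 6.98e-13) and Cebpd, which sustains Il6 transcription, 7.42-fold higher (log2 2.89, SE 0.11, edgeR adjusted p = 2.01e-12). Jun, the AP-1 subunit, was at 62.4, 54.5 and 58.9 CPM with LPS and 282, 282 and 321 CPM without (log2 −2.33, SE 0.11, edgeR adjusted p = 4.82e-11). Of 23 immediate early genes 13 were higher and 6 lower (median 0.57), or 9 and 7 with library size alone.

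Most genes for entry into DNA replication fell. E2f2, an activator of replication genes, was at 1.67, 2.23 and 2.35 CPM with LPS and 30.4, 24.3 and 27.8 CPM without, 13.2-fold lower (log2 −3.73, SE 0.16, edgeR adjusted p = 1.14e-11). Cdt1, which licenses replication origins, was at 18.4, 24.1 and 23.5 CPM with LPS and 85.1, 84.7 and 85.2 CPM without (log2 −1.95, SE 0.11, edgeR adjusted p = 3.23e-10), and Rrm2, a subunit of the enzyme that makes deoxyribonucleotides, was 3.09-fold lower (log2 −1.63, SE 0.11, edgeR adjusted p = 4.41e-09). Of 32 DNA replication and G1/S genes 24 were lower and 0 higher by edgeR and limma-voom, 26 and 0 by DESeq2, and 25 and 0 at an unadjusted p under 0.05 (median −0.83). Of 30 mitosis and G2/M genes 10 were lower and 2 higher (median −0.19), and 15 were lower without platelet replicate 1. The higher members were Cks2, a partner of cyclin-dependent kinases, and Hmgb2, a chromatin protein, at log2 1.09 and 0.94 (edgeR adjusted p = 1.33e-05 and 3.5e-05). Ccnf, a cyclin that targets proteins for degradation, had log2 −0.82 (edgeR adjusted p = 5.68e-06). Among 17 CDK inhibitors and D-type cyclins 8 were higher and 7 lower (median 0.48), or 6 and 8 with library size alone. Cdkn1a, the inhibitor p21, was at 2279, 2474 and 2505 CPM with LPS and 748, 597 and 560.5 CPM without (log2 1.93, SE 0.11, edgeR adjusted p = 3.16e-10). Gadd45b, a stress protein, was 22.7-fold higher (log2 4.51, SE 0.13, edgeR adjusted p = 1.19e-13), and Ccnd1, cyclin D1, was at 8.800, 8.13 and 10.9 CPM with LPS and 109.9, 72.9 and 79.9 CPM without (log2 −3.23, SE 0.17, edgeR adjusted p = 1.31e-10).

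Genes of cholesterol synthesis and uptake were called lower more often than higher. Sqle, an enzyme of cholesterol synthesis, was at 14.7, 12.2 and 16.6 CPM with LPS and 32.2, 50.7 and 44.9 CPM without (log2 −1.56, SE 0.14, edgeR adjusted p = 1.73e-07). Msmo1 and Dhcr7, later enzymes of the same pathway, had log2 −0.81 and −1.24 (edgeR adjusted p = 5.87e-06 and 1.97e-05). Hmgcs1, an early enzyme, was instead higher, at 29.4, 28.04 and 31.1 CPM with LPS and 20.3, 26.8 and 26.4 CPM without (log2 0.27, SE 0.11, edgeR adjusted p = 0.0462), a call lost under most alternatives. Of 25 genes of cholesterol synthesis and uptake 10 were lower and 3 higher (median −0.29), 12 and 2 without platelet replicate 1, 14 and 1 with upper-quartile factors, and 18 and 0 with library size alone. Of 18 genes of cholesterol efflux and liver X receptor (LXR) targets 8 were lower and 6 higher (median −0.39), or 11 and 5 with library size alone. Abca1, which exports cholesterol, was at 259.8, 259 and 319 CPM with LPS and 96.2, 102 and 106 CPM without (log2 1.46, SE 0.17, edgeR adjusted p = 2.64e-06), and Nr1h3, LXR alpha, 3.98-fold higher (log2 1.99, SE 0.11, edgeR adjusted p = 2.45e-10). Rxra, the partner of LXR, and Scd2, a desaturase, were 3.27-fold lower (log2 −1.71, SE 0.14, edgeR adjusted p = 2.72e-08) and 2.77-fold lower (log2 −1.47, SE 0.13, edgeR adjusted p = 1.12e-07).

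Of 20 triglyceride and lipid droplet genes 8 were higher and 8 lower (median −0.11). Without platelet replicate 1 there were 7 higher and 10 lower, with upper-quartile factors 6 and 11, and with library size alone 5 and 12. Dgat2, which completes triglycerides, was at 39.8, 37.4 and 30.4 CPM with LPS and 0.9498, 1.81 and 1.51 CPM without, 24.9-fold higher (log2 4.64, SE 0.18, edgeR adjusted p = 4.78e-12). Acsl1, which activates fatty acids, was 5.54-fold higher (log2 2.47, SE 0.13, edgeR adjusted p = 1.43e-10). Plin2, the coat protein of lipid droplets, was at 1388, 1470 and 1331 CPM with LPS and 3606, 3727 and 3483 CPM without (log2 −1.37, SE 0.06, edgeR adjusted p = 2.92e-11). Angptl4, an inhibitor of lipoprotein lipase, had the largest fall in the list, at 0.364, 0.642 and 1.25 CPM with LPS and 11.6, 11.2 and 10.9 CPM without (log2 −3.90, SE 0.31, edgeR adjusted p = 2.68e-08).

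Glycolysis genes were called higher more often than lower, except with library size alone. Pfkfb3, whose product activates glycolysis, was at 180.5, 169 and 163 CPM with LPS and 22.6, 24.2 and 26.03 CPM without, 7.02-fold higher (log2 2.81, SE 0.13, edgeR adjusted p = 2.14e-11). Slc2a1, the glucose transporter GLUT1, was 3.11-fold higher (log2 1.64, SE 0.09, edgeR adjusted p = 2.21e-10), and Slc2a3, the transporter GLUT3, 3.098-fold lower (log2 −1.63, SE 0.19, edgeR adjusted p = 2.83e-06). The glycolysis and hypoxia list had 19 of 33 higher and 3 lower (median 0.36), 15 and 6 with upper-quartile factors, and 13 and 13 with library size alone, where the median was 0.00. Pfkfb4, a relative of Pfkfb3, and Pdk1, which restrains entry of pyruvate into the citric acid cycle, were the other lower members, at log2 −0.59 and −0.31 (edgeR adjusted p = 0.000526 and 0.0312), and Pdk1 lost its call without any 1 of 4 of these 6 libraries. The list of itaconate and citric acid cycle genes had 5 of 25 higher and 7 lower. Its share called, 48%, was near the 49.4% of all genes tested (27.6% higher, 21.8% lower). The list's median of 0.02 was negative under each other scaling, with 2 higher and 14 lower by upper-quartile factors and 2 and 15 by library size. The higher members numbered 2 without platelet replicate 1, 3 without any 1 of the libraries with LPS after platelets and 7 without platelet replicate 2, and the lower ones 4 to 7 over the same exclusions. Pcx, pyruvate carboxylase, was 4.56-fold higher (log2 2.19, SE 0.25, edgeR adjusted p = 1.69e-06), and Idh1, a cytosolic isocitrate dehydrogenase, had log2 −0.65 (edgeR adjusted p = 1.85e-05).

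Of 36 nuclear respiratory chain subunits 5 were higher and 0 lower by edgeR, 6 and 0 by limma-voom, 5 and 4 by DESeq2 and 7 and 2 at an unadjusted p under 0.05. The median was 0.02 and turned negative under the other scalings, with 9 lower and 0 higher by upper-quartile factors and 20 and 0 by library size. The list gave 9 higher without platelet replicate 1, 5 lower and 1 higher without platelet replicate 3, and 1 or 2 higher without platelets-then-LPS replicate 2 or 1. The mitochondrially encoded list, with a median of 0.22 that turned to −0.02 with upper-quartile factors, had 4 of 10 higher and 0 lower by edgeR, by limma-voom and where p was under 0.05 before adjustment, and 3 and 0 by DESeq2. It gave 2 higher without platelet replicate 1 or without platelets-then-LPS replicate 3. Upper-quartile factors gave 0 higher and 1 lower, and library size gave 0 higher and 3 lower. Platelet replicate 1 held the most mitochondrial counts in total. In the members with the 3 smallest p-values it was instead the lowest platelet library. The platelet libraries had 149, 211 and 178 CPM of mt-Nd5, 361, 555 and 498.5 CPM of mt-Cytb and 381.5, 686 and 576.5 CPM of mt-Co1. Of 44 cytosolic ribosomal protein genes 0 were called in either direction by edgeR, by DESeq2, by limma-voom or where p was under 0.05 before adjustment (median −0.04). Without platelet replicate 1, 6 of them were higher, and with library size alone 29 were lower. Their summed level was 14560 to 15740 CPM with LPS and 12790 to 20230 CPM without, the highest being platelet replicate 1.

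Most antioxidant and iron genes rose. Fth1, the heavy chain of the iron store ferritin, was at 41220, 44520 and 41840 CPM with LPS and 25910, 20400 and 20330 CPM without, and gained more CPM than any other gene called (log2 0.94, SE 0.10, edgeR adjusted p = 7.51e-07). Slc7a11, which imports cystine for glutathione, was at 797, 760.2 and 873 CPM with LPS and 11.1, 14.9 and 19.4 CPM without, 53.3-fold higher (log2 5.74, SE 0.17, edgeR adjusted p = 1.24e-13). Slc11a2, an iron transporter, and Srxn1, which repairs peroxiredoxins, were 5.82-fold higher (log2 2.54, SE 0.09, edgeR adjusted p = 9.71e-13) and 3.65-fold higher (log2 1.87, SE 0.09, edgeR adjusted p = 2.81e-11). Of 26 NRF2, glutathione, haem and iron genes 20 were higher and 3 lower (median 1.02). Cd163, the haemoglobin scavenger receptor, was lower (log2 −3.09, SE 0.27, edgeR adjusted p = 9.17e-08). Its levels were 2.25, 0.899 and 2.27 CPM with LPS and 13.6, 18.1 and 15.1 CPM without. The other lower members were Tfrc, the transferrin receptor, and Trf, transferrin, at log2 −0.92 and −0.71 (edgeR adjusted p = 9.14e-06 and 6.32e-05). In the list of ATF4 and unfolded protein response genes 6 of 24 were higher and 5 lower (median −0.08), or 6 and 9 without platelet replicate 1. With upper-quartile factors 4 were higher and 13 lower, and with library size alone 3 and 15. This list had 45.8% of its tested members called, near the 49.4% of all genes tested (27.6% higher, 21.8% lower). Its higher members included the stress protein Nupr1, 4.702-fold higher (log2 2.23, SE 0.11, edgeR adjusted p = 4.08e-11), and Herpud1, of protein degradation at the endoplasmic reticulum, and Asns, which makes asparagine, at log2 0.69 and 0.68 (edgeR adjusted p = 5.49e-06 and 9.73e-06).

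Lysosomal and phagocytic genes fell more often than they rose. Ctsl, a lysosomal cysteine protease, was at 984, 1032 and 999.7 CPM with LPS and 3058, 2901 and 2750 CPM without (log2 −1.53, SE 0.07, edgeR adjusted p = 1.37e-11). Ctsd, an aspartic protease, was 1.600-fold lower (log2 −0.68, SE 0.06, edgeR adjusted p = 8.1e-08), and Ctsc, which activates granule proteases, was 2.47-fold higher (log2 1.30, SE 0.10, edgeR adjusted p = 1.87e-08). Of 27 lysosome and cathepsin genes 11 were lower and 3 higher (median −0.12), 15 and 2 without platelet replicate 1, 21 and 2 with upper-quartile factors, and 22 and 1 with library size alone. Of 31 scavenger, phagocytic and Fc receptors 15 were lower and 9 higher (median −0.23). Fcgr2b, the inhibitory Fc receptor, was at 514, 522 and 475 CPM with LPS and 44.2, 49.4 and 49.96 CPM without, 10.5-fold higher (log2 3.40, SE 0.08, edgeR adjusted p = 1.69e-14). Of the receptors that clear dying cells, Axl was 6.76-fold higher (log2 2.76, SE 0.10, edgeR adjusted p = 2.11e-12) and Mertk was 11.97-fold lower (log2 −3.58, SE 0.24, edgeR adjusted p = 3.91e-09). Gas6, the ligand of both, was at 39.05, 33.9 and 41.3 CPM with LPS and 114, 131 and 115 CPM without (log2 −1.66, SE 0.10, edgeR adjusted p = 4.77e-10).

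Icam1 and Vcam1, adhesion molecules, rose, while the chemokine receptors Ccr1 and Ccr2 fell. Icam1, a ligand of leukocyte integrins, was at 977, 969 and 954 CPM with LPS and 31.2, 44.5 and 42.9 CPM without, 24.4-fold higher (log2 4.61, SE 0.12, edgeR adjusted p = 3e-14). Vcam1, another integrin ligand, was 224-fold higher (log2 7.81, SE 0.22, edgeR adjusted p = 7.55e-14) and Ccrl2, a chemerin-binding receptor, 123-fold higher (log2 6.94, SE 0.13, edgeR adjusted p = 1.75e-15). Ccr2, the receptor for Ccl2, was at 47.1, 42.8 and 41.4 CPM with LPS and 131, 153 and 155 CPM without (log2 −1.74, SE 0.10, edgeR adjusted p = 4.75e-10), and Ccr1 had the largest fall of the list at log2 −2.08 (edgeR adjusted p = 3.41e-10). Of 26 chemokine receptors and adhesion genes 14 were higher and 7 lower (median 0.88). The list of classical and nonclassical monocyte markers had 8 of 19 higher and 6 lower, and a median of 0.28 that turned to −0.07 with library size alone, where, as with upper-quartile factors, 6 were higher and 8 lower. Itgal, an integrin chain, was at 289, 265 and 314 CPM with LPS and 24.9, 38.9 and 36.05 CPM without, 8.67-fold higher (log2 3.12, SE 0.14, edgeR adjusted p = 1.7e-11), and Pparg, a lipid-sensing factor, 5.86-fold lower (log2 −2.55, SE 0.14, edgeR adjusted p = 1.86e-10).

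Lineage factors and growth factor receptors were 13 higher and 5 lower of 25 (median 0.43), 10 and 7 with upper-quartile factors, and 8 and 8 with library size alone. Tnfrsf1b, a TNF receptor, was at 5140, 5094 and 5086 CPM with LPS and 175, 252 and 254 CPM without (log2 4.49, SE 0.12, edgeR adjusted p = 6.02e-14), and Csf2rb, the shared chain of the GM-CSF receptor, was 4.62-fold higher (log2 2.21, SE 0.11, edgeR adjusted p = 5.53e-11). The TGF-beta response was divided, 9 higher and 7 lower of 21, with a median of 0.19 that turned negative with upper-quartile factors and library size, and with 7 higher and 9 lower by library size. Id1, an inhibitor of differentiation factors, was at 10.4, 8.43 and 7.67 CPM with LPS and 173, 120.3 and 116 CPM without (log2 −3.95, SE 0.16, edgeR adjusted p = 5.5e-12), while Tgm2, a transglutaminase, and Skil, an inhibitor of SMAD proteins, were 2.61-fold higher (log2 1.39, SE 0.09, edgeR adjusted p = 3.83e-09) and 3.66-fold higher (log2 1.87, SE 0.14, edgeR adjusted p = 8.49e-09). Of 23 BCL2 family and cell death genes 13 were higher and 3 lower (median 1.01). Fas, a death receptor, was 19.9-fold higher (log2 4.32, SE 0.10, edgeR adjusted p = 1.13e-14). Bcl2a1a and Bcl2a1d, near-identical survival genes whose reads may be shared, were 276-fold higher (log2 8.11, SE 0.22, edgeR adjusted p = 4.51e-14) and 80.3-fold higher (log2 6.33, SE 0.20, edgeR adjusted p = 2.78e-13). Bcl2l1, the survival gene for BCL-XL, was at 55.4, 60.6 and 55.4 CPM with LPS and 183, 175 and 179 CPM without (log2 −1.65, SE 0.08, edgeR adjusted p = 3.18e-11), Bcl2 had log2 −1.05 (edgeR adjusted p = 7.56e-05) and Ripk3, a kinase of necroptosis, log2 −0.51 (edgeR adjusted p = 0.000437).

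Some genes were seen almost entirely on one side of LPS. Of the genes called higher, 91 had no count in the 3 platelet libraries and 105 had 1 to 3 counts over them. Shisa3, of a family that retains growth factor receptors inside the cell, was at 196, 180.1 and 203 CPM with LPS and had 1 count without, a ratio of 18520 with a 95% counting interval of 3323 to 731400. Adamts4, which cuts cartilage proteoglycan, was at 45.6, 36.7 and 46.8 CPM with LPS and had no count without, at least 454-fold higher. Zfp811, a zinc finger gene, was at 33.96, 31.3 and 32.9 CPM with LPS and had no count without, at least 345-fold higher. Ifi213, a DNA sensor relative, and Lad1, an anchoring filament protein, were at 52.5, 49.7 and 69.8 CPM and 48.5, 36.8 and 42.7 CPM with LPS, each with 1 count without. On the other side, 8 genes called lower had no count with LPS and 31 had 1 to 3 counts, all at low levels. Pcyt1b, of phosphatidylcholine synthesis, was at 0.0727, 0 and 0 CPM with LPS and 1.41, 1.94 and 1.17 CPM without (log2 −5.62, SE 0.70, edgeR adjusted p = 5.73e-06). Zfp791, a zinc finger gene, had no count with LPS and 0.246, 1.25 and 1.62 CPM without, and Zfp786, another, had no count with LPS and 0.668, 0.7499 and 0.882 CPM without. Jag2, a Notch ligand, had 3 counts with LPS and 61 counts without, Dlx2, a homeobox factor, had 3 counts with LPS and 56 without, and Acot4, a peroxisomal thioesterase, had 1 count with LPS and 80 without. In all, 567 tested genes were at 1 CPM or more on average with LPS and below it without, and 424 the other way round.

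In terms of reads, 24% of the counts moved between genes that lost share and genes that gained it. The gain was concentrated: 65 genes carried 50% of it, while 285 carried 50% of the loss. After Fth1 the largest gains were those of Sqstm1, an autophagy receptor, at 10380, 10820 and 10260 CPM with LPS and 1329, 1435 and 1383 CPM without (log2 2.92, SE 0.06, edgeR adjusted p = 3.74e-15), and then of Acod1, Prdx1, a peroxide-removing enzyme, at 9894, 10340 and 9297 CPM with LPS and 3698, 2947 and 2821 CPM without (log2 1.64, SE 0.10, edgeR adjusted p = 1.15e-09), Cxcl10 and Ccl5. The largest losses were of Lyz2, the lysozyme of myeloid cells, at 31770, 33440 and 30980 CPM with LPS and 39200, 38650 and 35580 CPM without (log2 −0.24, SE 0.06, edgeR adjusted p = 0.00588), of Ctsd and Plin2, and of Ctsb, Ctsl and Apoe. Apoe, a lipid carrier, was at 3204, 3465 and 3162 CPM with LPS and 6036, 4875 and 4317 CPM without (log2 −0.63, SE 0.10, edgeR adjusted p = 5.96e-05), and platelet replicate 1 was the highest of the libraries without LPS. The call of Ctsb was lost without platelet replicate 2 or platelets-then-LPS replicate 3. Among protein-coding genes 52.4% of 11336 were called, against 45.7% of 247 long intergenic noncoding RNAs, of which 51 were higher and 62 lower, and 10.4% of 346 processed pseudogenes.

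Markers of other cell types that the samples could hold were called in part, as were 49.4% of all genes tested (27.6% higher, 21.8% lower). The shares of tested markers called were 47.4% for platelet and megakaryocyte, 53.8% for neutrophil and 57.1% for dendritic cell markers. In lists of 5 to 7 tested genes they were 28.6% for basophil and mast cell, 60% for stromal and endothelial and 80% for erythroid markers. Of 19 platelet and megakaryocyte markers tested 9 were lower and 0 higher by edgeR, 10 and 0 by DESeq2, by limma-voom and where p was under 0.05 before adjustment, with a median of −0.50. Their summed level was 4236 to 4492 CPM with LPS and 4149 to 6956 CPM without, most of it from Pf4, and the highest value was that of platelet replicate 1. The same markers summed to 4113 to 4809 CPM in untreated cells. Ctla2a was at 95.6, 89.2 and 74.1 CPM with LPS and 239, 139 and 114 CPM without (log2 −0.92, SE 0.21, edgeR adjusted p = 0.00169), and Rgs18, a regulator of G protein signalling in platelets, at 18.9, 17.1 and 16 CPM with LPS and 40.9, 40.8 and 36.2 CPM without (log2 −1.18, SE 0.11, edgeR adjusted p = 1.48e-07). Gp9, a part of the von Willebrand factor receptor, had log2 −1.30 (edgeR adjusted p = 0.000566). The number of markers called lower was 5 without platelets-then-LPS replicate 2, 5 without replicate 3 and 6 without platelet replicate 2. The part of the platelet RNA in the results above was not tested. Of 5 erythroid genes 3 were lower and 1 higher: the globin Hba-a1 was at 6.98, 6.33 and 5.32 CPM with LPS and 17.6, 8.999 and 8.02 CPM without (log2 −0.89, SE 0.27, edgeR adjusted p = 0.0132), Hbb-bs and Hba-a2 had log2 −1.58 and −1.92 (edgeR adjusted p = 0.00368 and 0.00672), and Car2, a carbonic anhydrase, was at 4.95, 3.64 and 2.85 CPM with LPS and 0.0703, 0.0312 and 0.228 CPM without (log2 5.01, SE 0.55, edgeR adjusted p = 1.45e-06). The erythroid genes summed to 9.97 to 14.3 CPM with LPS and 12.1 to 24.9 CPM without, and Epor and Car1 were at 0 in all 6 libraries.

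The other marker lists were small or low. Among 13 neutrophil genes 5 were higher and 2 lower, with Lcn2, an iron-chelating protein that macrophages also make, at log2 4.33 and Retnlg, which is close to neutrophil-specific, at log2 −2.68 (edgeR adjusted p = 2.52e-11 and 0.00557). Their summed level was 274 to 326 CPM with LPS and 225 to 262 CPM without. Among 7 basophil and mast cell genes, which summed to 84.0 to 95.5 CPM with LPS and 8.34 to 10.1 CPM without, 2 were higher and 0 lower by edgeR, by DESeq2, by limma-voom and where p was under 0.05 before adjustment. Hdc, which makes histamine, rose to 80.6, 82.7 and 77.9 CPM with LPS, against 0.352, 0.5000 and 1.08 CPM without (log2 6.91, SE 0.22, edgeR adjusted p = 2.95e-13), while the mast cell proteases Cma1, Mcpt4 and Tpsab1 were at 0 in all 6 libraries. Among 14 dendritic cell genes, which summed to 609 to 661 CPM with LPS and 204 to 276 CPM without, 6 were higher and 2 lower, with Fscn1, an actin bundler of mature dendritic cells, at log2 6.76, Xcr1 at 5.42 and Ccr7, the receptor that guides cells to lymph nodes, at 3.86 (edgeR adjusted p = 1.64e-12, 9.35e-11 and 1.07e-09). The lower ones, Batf3 and Cd209a, lost their calls without platelets-then-LPS replicate 2, Cd209a also without replicate 3 of that group and Batf3 also without platelet replicate 1. Of 5 stromal and endothelial genes tested, with sums of 33.3 to 36.9 CPM with LPS and 2.81 to 3.41 CPM without, 3 were higher and 0 lower by edgeR, 2 and 0 by DESeq2 and by limma-voom, and 3 and 0 where p was under 0.05 before adjustment. Pdgfrb was at 22.04, 24.5 and 25.8 CPM with LPS and had 1 count without, while Tek, Emcn, Col1a2 and Col3a1 were at 0 in all 6 libraries. Of the B cell list 2 genes and of the T and NK cell list 1 gene passed the filter, Cd79b and Klrd1 being lower at log2 −1.21 and −2.11 (edgeR adjusted p = 0.00165 and 0.00134), and Pax5, Ebf1, Cd3d and Cd3e were at 0 in all 6 libraries. The part of other cells in the results above was not tested.

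The LPS response after platelets was set beside that of monocytes not kept with platelets, with which it shares no library. In that comparison 6662 genes (50.7%) were called, 3640 (27.7%) higher and 3022 (23%) lower. Over 10157 genes at 1 CPM or more in all 4 groups, the log2 fold changes of both responses had a Pearson r of 0.961 and a slope of 0.911, and over all 13151 genes r was 0.929. The genes share libraries and scaling within each response, so this is a description. A test of the difference in log2 response (the interaction) passed for 208 genes (1.58%), 113 (0.859%) with a higher and 95 (0.722%) with a lower log2 change after platelets. A total of 361 passed without platelet replicate 1 and 87 without untreated replicate 2, so the number depends on single libraries.

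**Figure D5:**
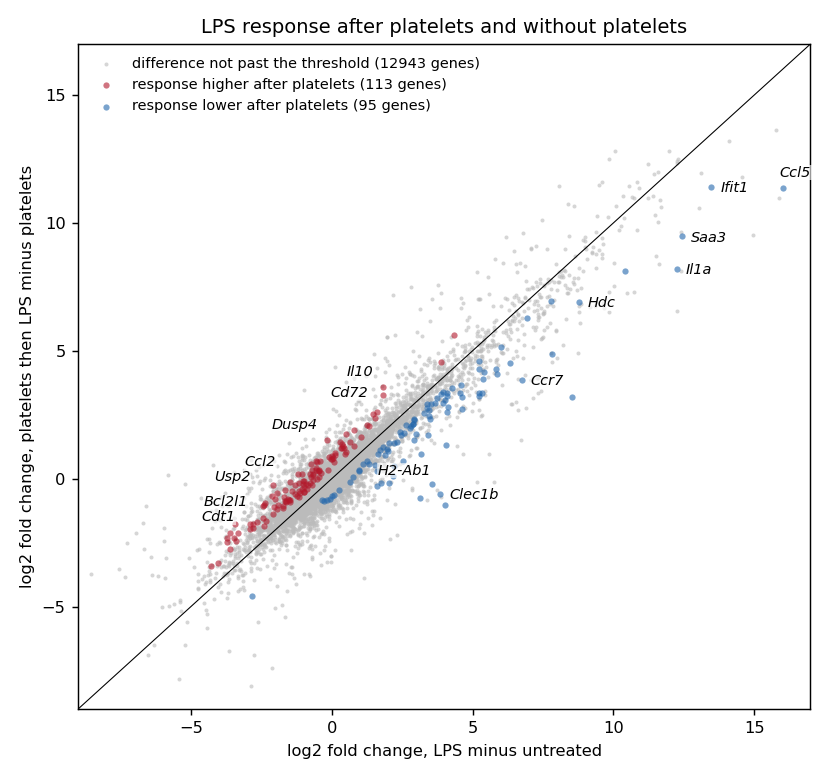
Each point is a gene, with its log2 fold change with LPS in monocytes without platelets on the horizontal axis and after platelets on the vertical axis, and the line marks equal change. Red and blue points are the 113 and 95 genes whose responses differed, and grey points are the other 12943 genes. Most points follow the line, and named blue points such as Ccl5, Saa3 and Il1a lie below it.

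Genes with a higher response after platelets included inhibitory and signalling genes. Il10 was at 17.3, 15.5 and 16.6 CPM with platelets and LPS and 1.58, 1.25 and 1.31 CPM with platelets alone, and at 14.2, 12.6 and 13.4 CPM with LPS and 3.65, 4.03 and 3.77 CPM in untreated cells (log2 difference 1.77, SE 0.20, edgeR adjusted p = 0.000229). Il10 thus started lower after platelets and reached similar levels with LPS. Dusp4, a phosphatase of MAP kinases, was at 84.2, 74.3 and 77.3 CPM with platelets and LPS and 22.2, 26.8 and 34.1 CPM with platelets alone, against 32.1, 28.9 and 31.3 CPM with LPS and 33.9, 37.1 and 32.2 CPM in untreated cells (log2 difference 1.66, SE 0.18, edgeR adjusted p = 0.000156). Ccl2 was at 637, 624 and 536 CPM with LPS and 1323, 1315 and 1506 CPM in untreated cells, so that it was lower with LPS without platelets and not called after them (log2 difference 1.40, SE 0.15, edgeR adjusted p = 0.00011). Usp2, a deubiquitinase, was at 12.1, 14.7 and 15.2 CPM with platelets and LPS and 16.6, 16 and 16.8 CPM with platelets alone, against 3.401, 2.76 and 2.72 CPM with LPS and 13.98, 11.3 and 13.2 CPM in untreated cells (log2 difference 1.87, SE 0.20, edgeR adjusted p = 0.000148). The other largest positive differences were those of Cd72, an inhibitory receptor (log2 difference 1.46, SE 0.18, edgeR adjusted p = 0.000584), Arl4c, a small GTPase and LXR target (log2 difference 1.51, SE 0.30, edgeR adjusted p = 0.0199), and Pdgfa, a growth factor (log2 difference 1.47, SE 0.26, edgeR adjusted p = 0.00842). Arl4c fell with LPS after platelets (log2 −2.12), so its positive difference is a smaller fall than without platelets.

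Of the genes with a lower response after platelets, Ccl5, Saa3, Il1a, Ccr7, Clec1b, Bcl2a1a and Ifit1 were also called higher with platelets alone than in untreated cells. The platelet libraries without LPS enter both of these contrasts. Ccl5 was at 5023, 5688 and 4259 CPM with LPS and 0.175, 0.03505 and 0 CPM in untreated cells, close to its level with LPS after platelets but with a lower start (log2 difference −4.66, SE 0.51, edgeR adjusted p = 0.000156). Saa3 was at 2682, 2716 and 2286 CPM with platelets and LPS and 3.69, 3.38 and 3.698 CPM with platelets alone, and at 2687, 2833 and 2088 CPM with LPS and 0.561, 0.3505 and 0.442 CPM in untreated cells (log2 difference −2.97, SE 0.23, edgeR adjusted p = 2.52e-05). Il1a was at 113, 99.5 and 107 CPM with platelets and LPS and 0.352, 0.2500 and 0.455 CPM with platelets alone. Without platelets it was at 82.2, 69.5 and 84.5 CPM with LPS and 0, 0.03505 and 0 CPM in untreated cells (log2 difference −4.04, SE 0.71, edgeR adjusted p = 0.00786). Untreated cells had 6 counts of Ccl5 and 1 count of Il1a in all, so the size of these differences rests on few reads. Ccr7 was at 31.3, 34.1 and 26.1 CPM with platelets and LPS and 1.62, 1.59 and 3.02 CPM with platelets alone, against 31.5, 33.3 and 37.6 CPM with LPS and 0.2103, 0.561 and 0.1699 CPM in untreated cells (log2 difference −2.89, SE 0.43, edgeR adjusted p = 0.00254). Clec1b, the platelet receptor CLEC-2, was at 14.3, 10.9 and 11.7 CPM with platelets and LPS and 24.8, 17.1 and 14.03 CPM with platelets alone, against 0.724, 0.6902 and 0.762 CPM with LPS and 0, 0 and 0.136 CPM in untreated cells (log2 difference −4.44, SE 0.71, edgeR adjusted p = 0.00388). Among untreated cells only replicate 3 had counts of Clec1b, in a library where 3 counts are 0.102 CPM. The size of this difference therefore rests on few reads too. Clec1b is a member of the platelet marker list, and its own fall with LPS after platelets lost its call without platelet replicate 1 and under 8 other alternatives. Bcl2a1a had a log2 difference of −2.31. Ifit1, with 0.739, 1.09 and 0.768 CPM after platelets and 0.1402, 0.245 and 0.136 CPM in untreated cells before LPS, was the only member of the interferon-stimulated list called in this test (log2 difference −2.06, SE 0.27, edgeR adjusted p = 0.000704). The guanylate-binding list had 0 members called in this test by edgeR.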

How the data were processed

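The values are read counts per gene of 12 RNA sequencing libraries, not normalized, as the authors deposited them. Salmon 1.5.2, featureCounts of Subread 2.0.1, STAR 2.7.9a and fastp 0.23.1 appear in the submitters' processing notes. Their roles, the strand setting, the annotation and the genome build are not given in the sources used, and reads of overlapping or antisense genes cannot be told apart. The labels name a low-input cDNA kit with amplification, and duplicates were not marked by molecular identifiers, so counting floors and intervals cover counting error only.

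Of 53819 genes in the files, 26048 had a count and 13151 passed edgeR's expression filter. All 12 libraries were fitted with edgeR 4.0.16 in R 4.3.3 (4 group means, TMM factors, quasi-likelihood test, 8 residual degrees of freedom, common dispersion 0.0171), and p-values were adjusted over all genes tested by the Benjamini-Hochberg method at 0.05. Alternatives were DESeq2 1.42.0, limma-voom (limma 3.58.1), 3 other scalings, 2 other filters, a minimum log2 fold change, a replicate block, the 6 libraries alone and leaving out each library. The fit was also run on simulated counts. Few genes were changed there, in random directions and by folds far below the largest here. That run therefore does not bear on the scaling of these data. A floor of 3 counts per library bounds folds against groups with no count, and intervals are exact at 95%.

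The comparison, the 42 gene lists and the 22 genes always described were chosen with earlier results of these data known, and list counts carry no test. Other named genes are the 10 largest rises and falls at 10 CPM or more without overlap, the 6 highest of those nearly absent from a group, the 6 largest gains and losses in CPM, the 3 smallest p-values of each list with called members against its direction, and the 6 largest differences in response each way. Predicted genes, pseudogenes and receptor segments were left out of these ranks. Ly6c2, Csf1r, Tlr3, Zfp36l1, Ifi27l2a, Irf8, Angptl4, Mertk, Ccr1, Hba-a1, Gbp8, Gbp10, Gbp11, Il23a, Il33 and Trex1 are named outside that rule and were chosen after their values were seen. Some genes that the rule selects are not reported here. Promoter windows come from RefSeq on GRCm38.p6, where 9788 of the 13151 genes tested matched by symbol.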

Additional observations from a re-analysis of the deposited data

Results flagged for a closer look

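The log2 responses to LPS after platelets and without platelets differed, by edgeR's test of the difference at an adjusted p under 0.05, for 26 of the genes named. The difference (after platelets minus without) was positive for Usp2 at 1.87, Il10 at 1.77, Dusp4 at 1.66, Arl4c at 1.51, Pdgfa at 1.47, Cd72 at 1.46, Ccl2 at 1.40, Cdt1 at 0.96 and Bcl2l1 at 0.68. It was negative for Ccl5 at −4.66, Clec1b at −4.44, Il1a at −4.04, Saa3 at −2.97, Ccr7 at −2.89, Bcl2a1a at −2.31, Ifit1 at −2.06, Hdc at −1.87 and Mmp9 at −1.23. It was also negative, by less than 1 on the log2 scale, for Ccrl2 at −0.85, Tgm2 at −0.81, Msmo1 at −0.75, H2-Ab1 at −0.74, Icam1 at −0.62, Bnip3 at −0.57, Herpud1 at −0.56 and Fcgr2b at −0.56. For Cdt1, Bcl2l1 and Arl4c both responses were falls, and a positive difference means a smaller fall after platelets. Usp2 levels were also lower with LPS in both settings, though its change after platelets was not called. Cdt1 was at 18.4, 24.1 and 23.5 CPM with platelets and LPS and 85.1, 84.7 and 85.2 CPM with platelets alone, against 12.2, 12.3 and 10.2 CPM with LPS and 85.4, 84.7 and 92.3 CPM in untreated cells. Mmp9, a gelatinase, was at 25.5, 18.8 and 24.6 CPM with platelets and LPS and 5.98, 5.84 and 8.42 CPM with platelets alone, against 29.4, 24.6 and 28.2 CPM with LPS and 3.505, 3.93 and 2.85 CPM in untreated cells. Hdc was at 102, 105 and 102 CPM with LPS and 0.2804, 0.105 and 0.306 CPM in untreated cells. H2-Ab1 was at 133, 126 and 142 CPM with LPS and 47.5, 58.3 and 55.98 CPM in untreated cells. No cause of these differences was tested.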

How the results depend on the processing

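Of 199 named genes 25 changed their call under an alternative other than a minimum log2 fold change, 20 losing it and 4 gaining it under at least 1 of them. Changes above 1 on the log2 scale were among those lost: Cxcl12, a stromal chemokine, lost its call under each other scaling, without the filter, by DESeq2 and by limma-voom, and its log2 was 1.55 without platelets-then-LPS replicate 1, while Cd209a and Batf3 lost theirs without single libraries. Genes lower with LPS numbered 4623 with upper-quartile factors, and library size alone gave 2194 higher and 5749 lower. A minimum log2 fold change of 1 gave 2984 calls (1793 higher, 1191 lower), and 75 differences in response (34 positive, 41 negative). Differences in response numbered 371 without the filter (228 positive, 143 negative) and 403 by DESeq2 (192 positive, 211 negative), and none could be had from the 6 libraries alone. Leaving out 1 library at a time gave 5835 to 6754 calls, 3304 to 3636 higher and 2531 to 3284 lower, and 87 to 361 differences in response, 47 to 153 positive and 40 to 208 negative. With 2 libraries in a group, the pooled spread of all groups was assumed to hold for it. The sign of the log2 fold change turned for Atp5b (log2 −0.046) and Atp6v1b2 (−0.012) with upper-quartile factors, and with library size alone for Hmgcs1 (−0.097), Atp5a1 (−0.078), Cycs (−0.002), Atp5b (−0.16), Rpl4 (−0.19) and Atp6v1b2 (−0.13). The cause of these shifts was not tested.

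Replicate numbers gave no sign of pairing the libraries: those of the same number, with platelets and LPS and with platelets alone, had deviations from their group means that correlated at −0.04, 0.01 and 0.09. With 3 libraries per group and platelet replicate 1 standing apart, these correlations could miss a pairing. With the replicate number as a block there were 6210 calls (3480 higher, 2730 lower) and 118 differences in response (62 positive, 56 negative). Among the LPS-treated libraries with platelets, only that numbered 3 correlated best with its own number. Levels under 0.0853 to 0.128 CPM rest on fewer than 3 counts of a library.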
